A study of Homo sapiens with 65 samples.

Results

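The epicardial lineage genes described here are 10 of the 58735 genes in the deposited count table, and all 10 were found by symbol: WT1, TBX18, TCF21, BNC1, UPK3B, SEMA3D, PDGFRA, PDGFRB, DCN and LUM. They were followed through 65 libraries of left-ventricular cardioids, which are heart-like aggregates grown from the human induced pluripotent stem cell line WTC-11, each library being a pool of 8 cardioids sequenced from the 3′ ends of its mRNA. All groups share the differentiation protocol: mesoderm induction with FGF2, LY294002, activin A, BMP4 and CHIR99021, reseeding as aggregates at day 1.5, and patterning that includes BMP4, FGF2, insulin, C59 and retinoic acid. The genotype arm compared wild-type lines (WT, named WT, WT_TU, cl43_WT_UT and TNT2) with clones labelled HAS2 knockout (KO, named cl4, cl14, cl46 and cl51). Day 1.5 has 5 libraries of WT and 6 of KO, days 2.5 and 4.5 have 6 of each, and day 7.5 has 3 of each. The enzyme arm compared untreated cardioids with cardioids given hyaluronidase, which digests hyaluronan. HAse1.5 stands for treatment that began on day 1.5, and HAse2.5 for treatment that began on day 2.5. It held 3 libraries in each of 8 groups, at days 2.5, 4.5 and 7.5, with no HAse2.5 group at day 2.5. Its 3 libraries are 3 lines (TNNI1, WT and TNNT2), all labelled wild type in genotype. WT is a line name in both arms, and the library names of the TNNT2 line read TNT2, as a WT line of the genotype arm is named. The 3 untreated day 2.5 libraries are untreated by their titles, but their library names name the enzyme without the control tag that the untreated libraries of days 4.5 and 7.5 carry, so every value of that group rests on the titles. The labels call the cells cardiac progenitors up to day 4.5 and cardiomyocytes at day 7.5. The repeats R1 to R3 of a line in the genotype arm share that line or clone, so p-values over libraries partly measure the spread within lines.

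The epicardium is the mesothelial sheet that covers the heart. It arises from the proepicardium beside the inflow tract, and some of its cells leave the sheet by epithelial-to-mesenchymal transition, enter the heart wall and become fibroblasts and mural cells. WT1, TBX18 and TCF21 are transcription factors of the sheet and its progenitors, and PDGF receptors act in the derived cells: PDGFRA in the fibroblast branch and PDGFRB in the mural branch. Several of these genes have earlier roles as well, and PDGFRA in particular is made by the early mesoderm from which cardiac progenitors come. In a pool of whole cardioids, fewer cells of a type and less RNA per cell cannot be told apart.

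PDGFRA and PDGFRB carried most of the reads of these genes, and WT1 and TBX18 are factors of the epicardial sheet whose untreated and enzyme-treated values are described below, so stretches before their transcription starts are shown. They come from RefSeq (GRCh38.p14), which gave an entry for 8 of the 10 members, and are cut to bases outside the gene's annotated exons. Capitals mark matches to a CCAAT box (CCAAT, or ATTGG on the other strand) or to an E-box (CAGCTG, the same on both strands). The PDGFRA stretch is chr4:54233710-54233959 on the plus strand, before the second of its listed starts. The others are PDGFRB chr5:150155873-150156095, WT1 chr11:32435631-32435789 and TBX18 chr6:84764599-84764848, all on the minus strand and read 5′ to 3′ along the gene.
PDGFRA: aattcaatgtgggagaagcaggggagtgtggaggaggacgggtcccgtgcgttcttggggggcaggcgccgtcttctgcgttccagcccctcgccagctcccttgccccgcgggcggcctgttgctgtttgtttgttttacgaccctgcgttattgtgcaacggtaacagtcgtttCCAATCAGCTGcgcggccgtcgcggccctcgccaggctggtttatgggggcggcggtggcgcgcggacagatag
PDGFRB: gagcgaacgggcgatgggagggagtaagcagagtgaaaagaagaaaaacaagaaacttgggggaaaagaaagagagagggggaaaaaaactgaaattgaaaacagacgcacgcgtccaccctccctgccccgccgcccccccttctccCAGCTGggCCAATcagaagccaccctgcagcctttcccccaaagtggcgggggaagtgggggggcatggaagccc
WT1: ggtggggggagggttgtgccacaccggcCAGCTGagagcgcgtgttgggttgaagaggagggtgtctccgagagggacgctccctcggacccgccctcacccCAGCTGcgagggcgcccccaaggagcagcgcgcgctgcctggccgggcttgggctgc
TBX18: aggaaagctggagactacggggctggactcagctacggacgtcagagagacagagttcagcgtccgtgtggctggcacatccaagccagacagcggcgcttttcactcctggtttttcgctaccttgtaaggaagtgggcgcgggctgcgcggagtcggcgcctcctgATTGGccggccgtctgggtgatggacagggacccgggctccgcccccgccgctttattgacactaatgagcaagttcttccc
In both receptor stretches a CCAAT box and an E-box stand close together, in opposite order. The WT1 stretch holds the E-box at a pair of places and the TBX18 stretch a CCAAT box on the other strand. Both PDGFRA and WT1 have further listed starts and the stretches shown were picked from these. The other PDGFRA stretch, of 54 bases, held no match, and of the other 3 WT1 stretches 1 held a TCF/LEF site and none the E-box. Of 35116 RefSeq promoters, the 250 bases before the start held a CCAAT box in 32.0% and this E-box in 14.0%. The search also covered a T-box half-site (GGTGTGA, in 2.76% of promoters), a GATA site (AGATAA, 9.17%), a TCF/LEF site (CTTTGA, 11.2%) and a TATA box (TATAAA, 10.7%), on both strands, and none of these was in the 4 stretches shown. A T-box half-site lies in the full 250-base window of PDGFRB, outside the printed stretch. The PDGFRB and WT1 stretches, at 223 and 159 bases, are shorter than the windows behind the shares. These matches are letters and not measured binding sites.

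Total counts per library ran from 831062 to 3574843 (median 1570954), so the floor used here, 3 counts, corresponds to 0.839 to 3.61 CPM, which are counts scaled to a library of 1000000. Floors cover counting error only. Cardiomyocyte markers (8 genes such as TNNT2 and MYH6) summed to 37.9 to 109 CPM at day 1.5 and to 29319 to 69435 CPM at day 7.5, where the labels say cardiomyocytes. HAS2 was read in every KO group: at day 4.5 it ranged from 286 to 485 CPM in the libraries labelled KO and from 150 to 482 CPM in WT. The sources used here do not say which part of HAS2 was deleted, so 3′ reads do not check the label, and directions below are those of the libraries labelled KO.

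Over all 65 libraries the 10 genes had 26969 counts, of which PDGFRA held 87.5% and PDGFRB 8.22%. WT1, TBX18, TCF21, BNC1 and UPK3B, the genes that define the epicardial sheet, had 468 counts together, or 1.74%. The summed reads of the list are thus almost all from the 2 PDGF receptors. UPK3B, a uroplakin of mesothelial cells on chromosome 7 (76510428 to 76516521, plus strand), had 4 counts in 3 libraries and was at the floor in all 16 groups. TBX18 and BNC1 were at the floor in 12 groups each, WT1 in 10, DCN in 9, TCF21 in 8, LUM in 6 and SEMA3D in 3. SEMA3D, PDGFRA and PDGFRB passed the filter on low counts in the genotype arm (3 of 10 members, among 13797 genes tested), and these with WT1 and LUM passed in the enzyme arm (5 of 10, among 12748). A member that passed only through a group where it is high was bound to differ, so the counts of members called below describe these genes and not the list.

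**Figure D1:**
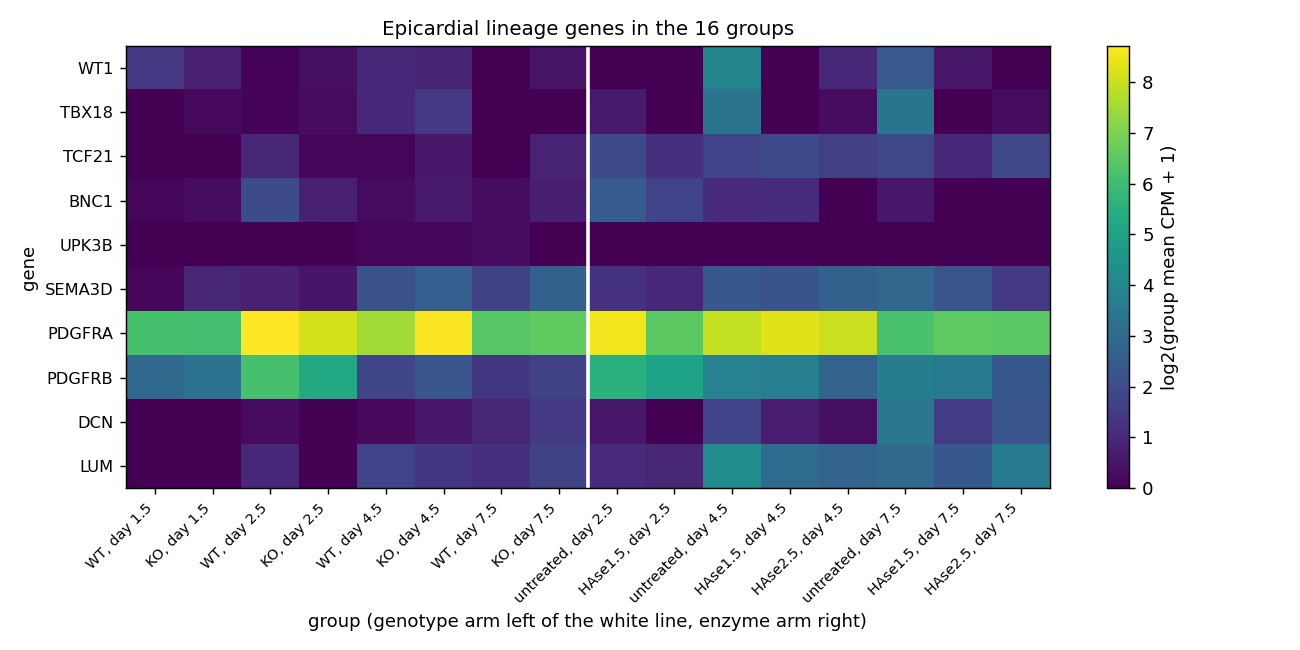
Mean level of each of the 10 genes (rows) in the 16 groups (columns), as log2(group mean CPM + 1), with the genotype arm left of the white line. PDGFRA is bright throughout, PDGFRB peaks at day 2.5, and UPK3B stays at the bottom of the scale in every group.

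PDGFRA encodes the receptor for PDGF-A and PDGF-C ligands and lies on chromosome 4 (54229097 to 54298247, plus strand, GRCh38). In the 5 WT libraries at day 1.5 it had 102, 82.5, 59.5, 57.4 and 57.9 CPM. The 6 WT libraries at day 2.5 ran from 328 to 512 CPM with a median of 424. At day 4.5 the 6 WT libraries ran from 126 to 284 CPM with a median of 163, and at day 7.5 the 3 had 122, 76.8 and 61.4 CPM. All day 2.5 libraries thus lay above all libraries of the other days, and those of days 1.5 and 7.5 were at similar heights. The rise to day 2.5 was 2.31 ± 0.24 on the log2 scale (SE, edgeR adjusted p = 5.33e-10), and the level then fell by 1.17 ± 0.22 to day 4.5 (edgeR adjusted p = 3.32e-05). The last step fell by 1.02 ± 0.28 (edgeR adjusted p = 0.0320), but this call was lost without WT_R1 or WT_TU_R1 at day 4.5 (adjusted p = 0.0546 and 0.0849) and without WT_R2 or WT_TU_R2 at day 7.5 (0.188 and 0.285). It was also lost without the filter on low counts (0.0614), with only the libraries compared (0.171) and with counts summed per line (0.0687).

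PDGFRB, the receptor for PDGF-B, lies on chromosome 5 (150113837 to 150155872, minus strand). It had 6.43, 10.2, 5.74, 4.61 and 5.17 CPM in WT at day 1.5, and 54.6 to 99.1 CPM with a median of 69.1 at day 2.5. At day 4.5 it was between 0 and 5.04 CPM (median 2.69), and at day 7.5 it had 1.54, 3.49 and 0 CPM. PDGFRB was thus a gene of day 2.5 in these lines: it rose by 3.22 ± 0.43 on the log2 scale from day 1.5 (edgeR adjusted p = 1.48e-07) and fell by 4.68 ± 0.45 to day 4.5 (edgeR adjusted p = 5.32e-11). From day 4.5 to 7.5 no change passed (edgeR adjusted p = 0.780).

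SEMA3D, a secreted guidance factor made by the epicardium, lies on chromosome 7 (84995553 to 85186855, minus strand). In WT it ran from 0 to 1.43 CPM at day 2.5 (median 0.954) and from 0.937 to 7.91 CPM at day 4.5 (median 2.52), so that the days overlapped. The day 2.5 group was at the floor, so the rise is given as a bound: the day 4.5 mean of 3.50 CPM was at least 2.27-fold higher than 3 counts per library (edgeR adjusted p = 0.0173). Without the cl43_WT_UT library at day 4.5, the highest, the adjusted p was 0.0630. In the step from day 1.5 to 2.5 its edgeR adjusted p was 0.121, and from day 4.5 to 7.5 it was 0.842.

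Of the 3 members tested, 2 were called in the WT step from day 1.5 to 2.5, 3 from day 2.5 to 4.5 and 1 from day 4.5 to 7.5. Over all genes tested, 30.1%, 34.5% and 2.7% were called in the same steps. In the first and second step, therefore, calls were common across the transcriptome. The other 7 members stayed under 8 CPM in every WT and KO library. BNC1, a zinc finger factor of mesothelial cells, had its highest WT values at day 2.5 (0.492 to 7.34 CPM, median 1.89) and was at or below 0.659 CPM at day 4.5. LUM, a small leucine-rich proteoglycan of collagen matrix, had no count in any day 1.5 library and reached 5.86 CPM in WT at day 4.5.

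**Figure D2:**
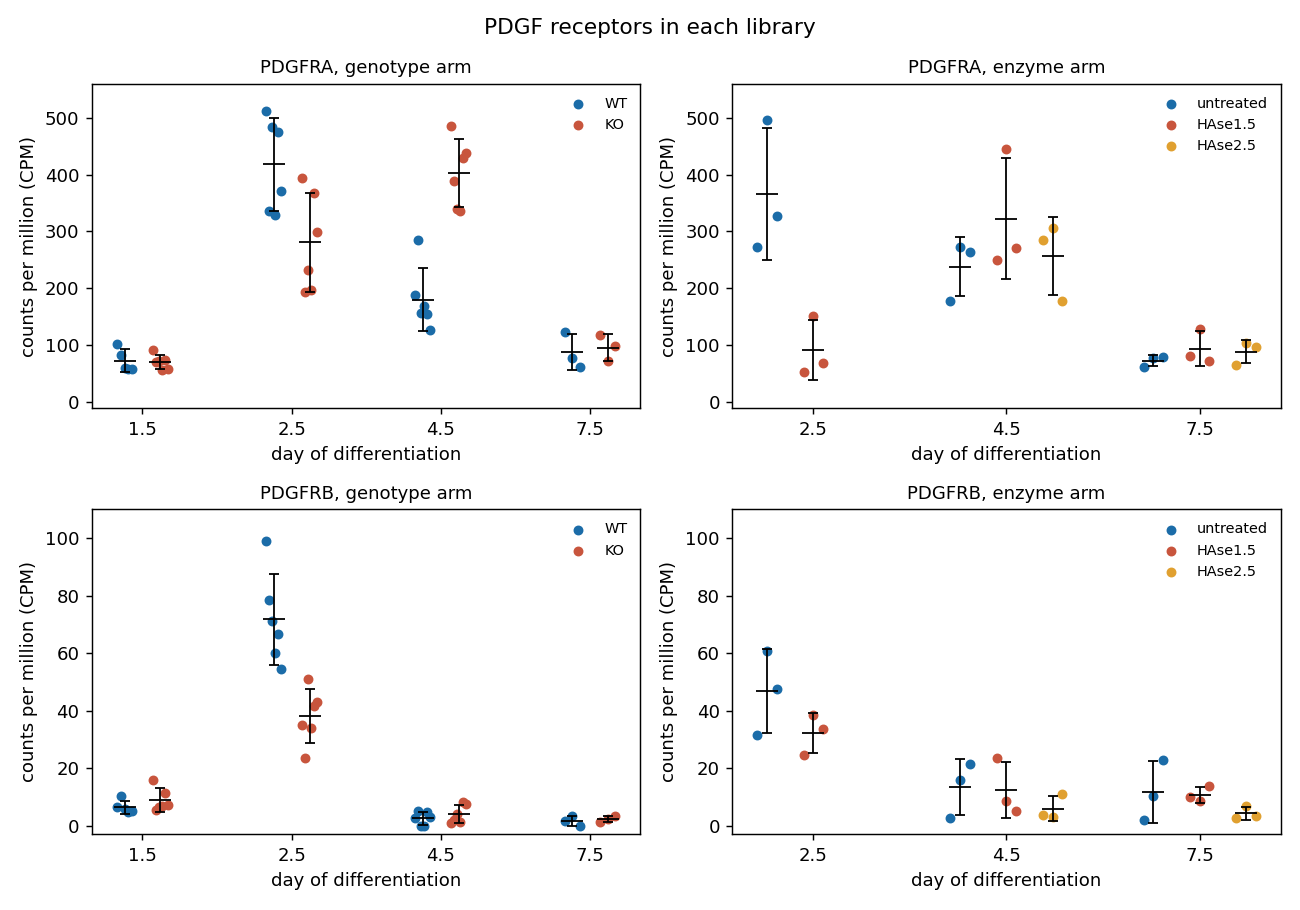
PDGFRA (top) and PDGFRB (bottom) in CPM (y axis) by day of differentiation (x axis) in the genotype arm (left) and the enzyme arm (right). Each point is 1 library, and black bars give the group mean and SD. At day 4.5 all 6 KO libraries lie above all 6 WT libraries for PDGFRA, and at day 2.5 all 3 HAse1.5 libraries lie below all 3 untreated ones.

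The comparison of KO with WT asks what changes in clones labelled as lacking the hyaluronan synthase gene HAS2. The clear difference was in PDGFRA at day 4.5. The 6 KO libraries had 486, 389 and 339 CPM (cl4), 335 (cl14), 429 (cl46) and 438 (cl51), against 188, 284, 157, 169, 155 and 126 CPM in WT. The lowest KO library was above the highest WT library. The group means were 403 ± 59.4 and 180 ± 54.9 CPM (SD, n = 6 each), and the log2 fold change was 1.08 ± 0.22 (SE, edgeR adjusted p = 0.00190). It passed in every alternative fit run on it.

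The libraries of the genotype arm fall into 3 blocks of library numbers, called runs A, B and C here. In run A the KO library had 486 CPM and the WT libraries 188 and 284. In run B it had 389 CPM against 157 and 169, and in run C the 4 KO libraries had 335 to 438 CPM against 126 and 155. The direction was therefore the same in each run. With run as a block the log2 fold change was 1.21 (edgeR adjusted p = 1.50e-06).

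At day 2.5 the receptors were on the other side of WT without passing the test. PDGFRA ran from 193 to 395 CPM in KO (median 265) against 328 to 512 CPM in WT, with an edgeR adjusted p of 0.182. PDGFRB ran from 23.6 to 51.1 CPM in KO (median 38.2) against 54.6 to 99.1 CPM in WT, so the groups did not overlap, yet the edgeR adjusted p was 0.266. It was 0.0265 in a fit of these 2 groups alone. At day 1.5 PDGFRA had 55.7 to 90.5 CPM in KO, overlapping WT, and at day 7.5 it had 117, 71.4 and 97.6 CPM (edgeR adjusted p = 0.964 and 1.0).

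Whether the KO difference changed over the 4 days was tested in the same fit. For PDGFRA it did (edgeR adjusted p = 0.00764), with 0.674% of all genes called in that test, and for PDGFRB (0.610) and SEMA3D (0.961) no change over days passed. The KO mean of PDGFRA was highest at day 4.5, where WT had already come down from day 2.5. The KO libraries of days 2.5 and 4.5 overlapped (193 to 395 and 335 to 486 CPM), and the step between them was not tested. The KO mean at day 4.5 (403 CPM) was close to the WT mean at day 2.5 (418 ± 81.8 CPM, SD, n = 6).

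Over the 4 days the number of members called between KO and WT was 0, 0, 1 and 0 of 3, against 0.0%, 0.993%, 3.74% and 0.348% of all genes. Where none was called, the members with an unadjusted p under 0.05 were 1 at day 1.5 (SEMA3D), 2 at day 2.5 (PDGFRA and PDGFRB) and 0 at day 7.5, and DESeq2 called 0 on each of these days. SEMA3D at day 7.5 had 3.90, 6.91 and 5.31 CPM in KO and 2.57, 2.79 and 1.29 CPM in WT, with no overlap but an edgeR adjusted p of 1.0. On that day run A held no KO library and run C no WT library, and KO held clones cl4 and cl14 only. Genotype and run can thus hardly be told apart at day 7.5. WT1 did not exceed 5.72 CPM and TBX18 did not exceed 4.63 CPM in any library of the genotype arm.

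Marker sums of other cell types at day 4.5 overlapped between KO and WT. The KO median was lower for cardiomyocyte markers (28368 against 38222 CPM). It was higher for markers of intermediate mesoderm, kidney and gonad (152 against 64.6 CPM). Cardiomyocyte markers (8 of 8 genes with a count) summed to 15012 to 40395 CPM in KO and 24836 to 56828 CPM in WT. Markers of intermediate mesoderm, kidney and gonad (7 genes) summed to 116 to 215 CPM in KO and 44.9 to 151 CPM in WT, with 4 of 7 having a count in WT and 6 of 7 in KO, PAX2, PAX8 and NR5A1 being at 0 in every WT library and NR5A1 at 0 in every KO library. Paraxial mesoderm markers (9 genes) were at 11.4 CPM or less in both groups, with MSGN1, MEOX1 and RIPPLY1 at 0. Their part in the PDGFRA difference was not tested.

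The enzyme arm asks what digestion of hyaluronan changes. At day 2.5 PDGFRA had 273, 496 and 326 CPM in the untreated lines TNNI1, WT and TNNT2, and 52.8, 151 and 68.7 CPM in the same lines after HAse1.5. The untreated side of this comparison is the group whose library names lack the control tag. Every treated library was below every untreated one, and the value was lower in 3 of 3 lines. The log2 fold change of PDGFRA was −2.03 ± 0.35 (SE, edgeR adjusted p = 0.00215), from a mean of 365 ± 117 to 90.8 ± 52.7 CPM (SD, n = 3 each). In a fit of these 6 libraries alone the adjusted p was 0.0628. It was the 1 member called of 5 tested, where 1.15% of all genes were called.

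At day 4.5 the same lines had 177, 272 and 264 CPM untreated, 250.1, 445 and 271 CPM after HAse1.5 and 285, 305 and 178 CPM after HAse2.5. The groups overlapped, with an edgeR adjusted p of 0.745 for HAse1.5 and of 1.0 for HAse2.5. At day 7.5 they had 60.7, 76.6 and 79.4 CPM untreated, 80.7, 128 and 71.8 CPM after HAse1.5 and 65.1, 103 and 95.6 CPM after HAse2.5. The HAse1.5 difference in PDGFRA therefore changed over the 3 days (edgeR adjusted p = 0.0135 in the test over days, which called 1.01% of all genes), as the KO difference did in the other arm. Later days were also longer treatment, so day and duration cannot be told apart in that test. The arms were not compared with each other in a test.

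At day 2.5 the following marker sums did not overlap between HAse1.5 and untreated libraries. Cardiomyocyte markers summed to 1265 to 1473 CPM after HAse1.5, with MYH6, MYH7 and ACTN2 at 0, and to 2676 to 3524 CPM untreated, with MYH7 at 0. Markers of intermediate mesoderm, kidney and gonad summed to 2214 to 3759 CPM after HAse1.5 and 798 to 1147 CPM untreated, with OSR1 at 0 after HAse1.5 and PAX8 and EYA1 at 0 untreated. The same sum was 2208 to 2843 CPM in WT at day 1.5, also with OSR1 at 0. A high sum is therefore not particular to the enzyme, and it does not by itself show cells of these tissues. Paraxial mesoderm markers summed to 70.3 to 176 CPM after HAse1.5 and 26.8 to 32.2 CPM untreated, with MSGN1 and PAX3 at 0 in both groups. Their part in the difference was not tested.

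PDGFRB in the enzyme arm had 31.7, 60.8 and 47.7 CPM untreated and 24.7, 38.3 and 33.7 CPM after HAse1.5 at day 2.5, lower in 3 of 3 lines, with overlap between the groups and an edgeR adjusted p of 0.925. In untreated cardioids it fell to 2.73, 15.99 and 21.6 CPM at day 4.5. The log2 fold change of that step was −1.93 ± 0.62 (SE, edgeR adjusted p = 0.0267). It lost the call without untreated TNNI1 or WT at day 4.5 (0.115 and 0.0580) or without untreated WT or TNNT2 at day 2.5 (0.0868 and 0.0622). TNNI1 stood lowest of the untreated lines on each day. At day 4.5 it had 23.6, 8.64 and 5.24 CPM after HAse1.5 and 3.59, 3.12 and 10.9 CPM after HAse2.5 (edgeR adjusted p = 0.969 and 0.871). At day 7.5 PDGFRB had 1.78, 10.2 and 23.0 CPM untreated, 9.78, 8.63 and 13.9 CPM after HAse1.5 and 2.77, 6.71 and 3.27 CPM after HAse2.5.

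WT1, a zinc finger transcription factor that defines the epicardium and is also made in kidney and gonad, lies on chromosome 11 (32387775 to 32435630, minus strand). It had no count in any enzyme-arm library at day 2.5. At day 4.5 the untreated lines TNNI1, WT and TNNT2 had 0, 12.4 and 29.9 CPM, and after HAse1.5 all 3 had 0. After HAse2.5 they had 0, 2.34 and 0.641 CPM. The untreated mean of 14.1 CPM was at least 6.83-fold higher than 3 counts per HAse1.5 library (edgeR adjusted p = 0.0478). The groups overlapped because untreated TNNI1 also had 0. WT1 reached 10 counts only in untreated libraries of this arm, so it passed the filter only through the groups where it is high, and its p is given as a description.

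The WT1 call rested on few libraries: without untreated TNNT2 the edgeR adjusted p was 0.187, without untreated WT 0.0846, and without HAse1.5 TNNI1, WT or TNNT2 it was 0.163, 0.0902 and 0.165. DESeq2 gave 0.341. At day 7.5 the untreated lines had 0, 5.11 and 8.16 CPM, HAse1.5 had 0, 0.719 and 0.697, and HAse2.5 had 0 in all 3. These differences did not pass (edgeR adjusted p = 0.346 and 0.268). From day 2.5 to 4.5 in untreated cardioids WT1 was at least 7.18-fold higher than 3 counts per library (edgeR adjusted p = 0.0133), and this was lost without the TNNT2 line at day 4.5 (0.0627) and with DESeq2 (0.141). WT1 shares exon bases with WT1-AS on the opposite strand, which had 38 counts over all libraries, and the strand setting of the counting is not given in the sources used here.

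TBX18, a T-box factor of the proepicardium, lies on chromosome 6 (84687351 to 84764519, minus strand). At day 4.5 the untreated lines TNNI1, WT and TNNT2 had 2.73, 3.55 and 21.6 CPM, all 3 HAse1.5 libraries had 0, and HAse2.5 had 0, 0 and 0.641 CPM. At day 7.5 the untreated lines had 5.35, 5.11 and 17.8 CPM, all HAse1.5 libraries had 0, and HAse2.5 had 0, 0.671 and 0 CPM. Every untreated library of this arm was above every treated one on both days. WT cardioids of the genotype arm, also without enzyme, had lower means. At day 4.5 these included lines named WT and TNT2, names that the library names of the enzyme arm carry as well. There TBX18 had a mean of 0.985 CPM at day 4.5 (highest library 3.955) and 0 in all 3 libraries at day 7.5. WT1 had a mean of 1.01 CPM there at day 4.5 (highest library 2.81) and 0 in all 3 at day 7.5. The arms were not compared with each other in a test. Marker sums of other cell types also separated untreated from HAse1.5 libraries, some lower and some higher after the enzyme. Cardiomyocyte markers (8 of 8 with a count) summed to 4991 to 18095 CPM after HAse1.5 and 22836 to 45246 CPM untreated at day 4.5, and to 29319 to 32286 and 59669 to 69435 CPM at day 7.5. Endoderm and hepatic markers (7 genes) summed to 19.0 to 56.5 CPM after HAse1.5, with AFP and FGB at 0, and 64.8 to 226 CPM untreated at day 4.5, and to 43.1 to 81.6, with AFP at 0, and 116 to 468 CPM at day 7.5. Endothelial markers were higher after HAse1.5 at day 4.5 (190 to 200 against 136 to 177 CPM untreated) and overlapped at day 7.5. At day 7.5 markers of intermediate mesoderm, kidney and gonad were higher (155 to 474 against 12.1 to 32.1 CPM), with PAX2, PAX8 and NR5A1 at 0 in both groups. Neural markers were lower on that day (529 to 634 against 772 to 1243 CPM), with SOX1 and SOX2 at 0 in both groups. After HAse2.5 the cardiomyocyte sums were 16619 to 30890 CPM at day 4.5 and 36353 to 60356 CPM at day 7.5. Their part in the WT1 and TBX18 differences was not tested. TBX18 did not pass the filter on low counts, so it has no test among the main results. Against 3 counts per library, the untreated mean was at least 4.49-fold higher than HAse1.5 and 4.34-fold higher than HAse2.5 at day 4.5, and at least 4.22-fold and 4.67-fold higher at day 7.5. Without the filter, edgeR called it in all 4 of these comparisons. No treated library had more than 1 count, and TNNT2 held 31 of the 39 untreated counts at day 4.5. These calls are therefore given as a description.

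In the untreated libraries WT1 and TBX18 were both highest in TNNT2 at day 4.5, and their group means over the 16 groups had a Pearson r of 0.854 on the log2(CPM + 1) scale. Groups share lines and runs, so this is a description. The 2 groups with the most WT1, untreated day 4.5 and day 7.5, were also those with the most TBX18. The markers of intermediate mesoderm, kidney and gonad, where WT1 is also known, summed to 63.1 to 159 CPM in untreated and 201 to 1647 CPM in HAse1.5 at day 4.5. This sum was also high in WT at day 1.5, as given above, so it does not by itself show cells of these tissues. Markers of sinus venosus and pacemaker cells (4 genes), where TBX18 is also known, summed to 314 to 404 CPM in untreated and 582 to 748 CPM in HAse1.5 at day 4.5. The part of these cell types in the WT1 and TBX18 values was not tested.

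TCF21, a basic helix-loop-helix factor needed for cardiac fibroblasts, lies on chromosome 6 (133889138 to 133895553, plus strand) and never exceeded 8 counts in a library. Its highest group mean was 3.10 ± 3.51 CPM in untreated day 2.5 (SD, n = 3). After HAse1.5 at day 4.5 the lines TNNI1, WT and TNNT2 had 4.97, 0 and 3.49 CPM, and untreated they had 0, 4.44 and 2.78 CPM. Unlike for TBX18, the groups thus overlapped. TCF21 shares 1383 exon bases with TARID on the opposite strand, which had 36 counts over all libraries.

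BNC1 (chromosome 15, 83255903 to 83284714, minus strand) was highest early in this arm too, with 0.511, 4.47 and 8.97 CPM in untreated TNNI1, WT and TNNT2 at day 2.5. After HAse1.5 on that day it had 0, 7.19 and 0 CPM. By day 7.5 it was at 0 in all treated libraries and at most 0.742 CPM untreated.

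LUM (chromosome 12, 91102629 to 91111831, minus strand) and DCN (chromosome 12, 91140484 to 91183123, minus strand) encode neighbouring proteoglycans of fibroblast matrix. LUM had 3.41, 8.88 and 40.3 CPM in untreated TNNI1, WT and TNNT2 at day 4.5, 2.48, 2.59 and 16.9 CPM after HAse1.5 and 0.719, 0.781 and 16.03 CPM after HAse2.5. It was lower than untreated in 3 of 3 lines with either enzyme schedule, but the lines differed more than the treatments. Neither difference passed in the fit without a line term (edgeR adjusted p = 0.7097 and 0.920), nor with line as a block. At day 7.5 LUM had 0, 7.02 and 14.1 CPM untreated and 1.38, 9.39 and 23.6 CPM after HAse2.5, now higher in 3 of 3 lines (edgeR adjusted p = 0.854). DCN had 0.892, 5.11 and 23.7 CPM untreated at day 7.5, 0.815, 2.88 and 2.09 CPM after HAse1.5 and 0, 0 and 11.8 CPM after HAse2.5. In each of these sets but DCN after HAse1.5, TNNT2 was the highest line.

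SEMA3D in the enzyme arm was highest in untreated day 7.5, with 5.35, 7.66 and 5.93 CPM in TNNI1, WT and TNNT2. After HAse2.5 the lines had 0.692, 4.70 and 0 CPM and after HAse1.5 3.26, 6.47 and 2.09 CPM. Both sets were lower than untreated in 3 of 3 lines, and neither passed (edgeR adjusted p = 0.412 and 0.720).

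**Figure D3:**
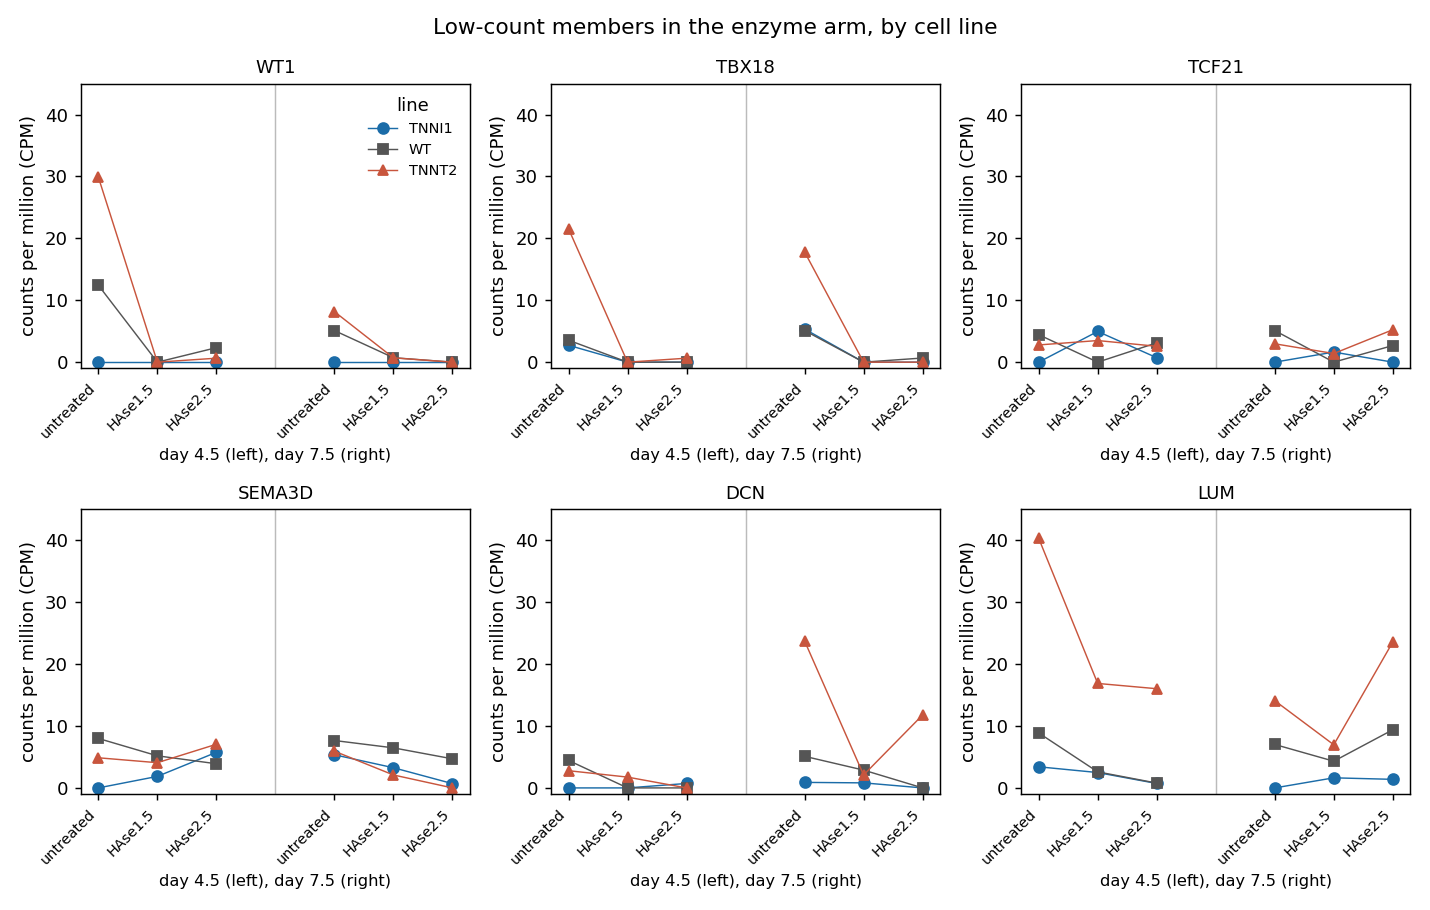
Low-count members in CPM (y axis) for untreated, HAse1.5 and HAse2.5 cardioids at day 4.5 and day 7.5 (x axis), with 1 point per library and a line joining the libraries of a cell line. TBX18 is at or below 0.671 CPM in every treated library, WT1 is at or below 2.34 CPM in every treated library and at 0 in untreated TNNI1, and the TNNT2 line carries the highest untreated values of WT1, TBX18, DCN at day 7.5 and LUM.

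Of the 5 members tested in the enzyme arm, 1 was called for HAse1.5 at day 4.5 (WT1) and 0 at day 7.5, against 3.48% and 3.33% of all genes. For HAse2.5, 0 were called at day 4.5 and 0 at day 7.5, against 0.22% and 0.659% of all genes. Between HAse1.5 and HAse2.5, 0 were called at day 4.5 and 0 at day 7.5, against 0.361% and 0.00784%. Where the count was 0, WT1 had an unadjusted p under 0.05 for HAse2.5 at days 4.5 and 7.5 (1 member each), no member did in the other 3 comparisons, and DESeq2 called 0 in all 5. From day 2.5 to 4.5 in untreated cardioids 2 were called (WT1 and PDGFRB, 23.0% of all genes). With line as a block this became 4, adding PDGFRA (edgeR adjusted p = 0.0238) and LUM (0.00447). From day 4.5 to 7.5 PDGFRA alone was called (6.39% of all genes): its log2 fold change was −1.59 ± 0.35 (SE, edgeR adjusted p = 0.00938), with 0.0566 when untreated TNNI1 at day 7.5 was left out.

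In the order of group means, PDGFRA ran from 418 CPM (WT day 2.5) through 403 (KO day 4.5), 365 (untreated day 2.5) and 322 (HAse1.5 day 4.5) to 69.8 CPM (KO day 1.5). Of the 15 steps between neighbours, 1 separated groups whose mean ± SD ranges did not meet: WT day 4.5 (180 CPM) and KO day 7.5 (95.4 CPM). HAse1.5 day 2.5 (90.8 CPM) stood eleventh, among the day 7.5 groups. For PDGFRB the break came after the day 2.5 groups, with HAse1.5 day 2.5 at 32.3 ± 6.94 CPM and untreated day 4.5 at 13.4 ± 9.67 CPM (SD, n = 3 each).

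Among 12563 genes compared over the 16 group means by Pearson r of log2(CPM + 1), the genes most like PDGFRA were PRTG (r = 0.909), ZNF446 (0.905) and ST8SIA2 (0.902). The group means of PRTG ran from 149 CPM in untreated day 7.5 to 1012 CPM in KO day 4.5. Those most like PDGFRB were HAUS1 (0.951), ZNF423 (0.926) and H1-10-AS1 (0.914). Those most like WT1 were GAP43 (0.853), POU4F1 (0.785) and CCDC3 (0.765), all highest in untreated day 4.5. For LUM they were NID1 (0.902), CTHRC1 (0.899) and FNIP1 (0.899). The groups share lines, runs and depth, and these are descriptions.

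The neighbours of the epicardial programme were read from a list of 20 genes of epicardial and mesothelial cells, of which 14 were tested in the genotype arm and 13 in the enzyme arm. Not all are particular to these cells: in WT at day 4.5 TBX5 and LRRN4 had means of 229 and 80.2 CPM, and WT1 and TBX18 1.01 and 0.985 CPM. A call in this list does not by itself show epicardial cells. Between KO and WT, 4 of 14 were called at day 2.5 (1 higher, 3 lower) and 5 at day 4.5 (2 higher, 3 lower), and 0 on the other days. Of all genes, 0.993% and 3.74% were called at days 2.5 and 4.5. The neighbours had a median log2 fold change of −0.79 at day 2.5 and 0.04 at day 4.5, against 0.01 and −0.03 for all genes. The keratins KRT18 and KRT8 were lower in KO on both days, while KRT19 and KRT7 were not among the genes called lower. KRT18 fell by 1.20 ± 0.20 at day 2.5 (edgeR adjusted p = 0.000846) and by 1.58 ± 0.20 at day 4.5 (edgeR adjusted p = 2.36e-06), from 697 ± 134 to 247 ± 91.7 CPM. KRT8 had log2 fold changes of −1.35 ± 0.26 and −1.34 ± 0.26 on these days (edgeR adjusted p = 0.00324 and 0.00136). LRRN4, a mesothelial surface protein, fell by 1.01 ± 0.30 at day 4.5 (edgeR adjusted p = 0.0435), while the Wnt antagonist SFRP5 rose by 2.60 ± 0.37 (edgeR adjusted p = 1.15e-05), from 17.5 ± 3.53 to 115 ± 79.5 CPM. TBX5, a factor of the first heart field and the epicardium, fell by 2.06 ± 0.35 at day 2.5 (edgeR adjusted p = 0.00163), and SFRP1 rose by 0.89 ± 0.19. Markers of other mesoderm stood apart on that day: paraxial mesoderm markers (9 genes, MSGN1 at 0) summed to 160.1 to 249.1 CPM in KO and 17.8 to 120 CPM in WT, and those of intermediate mesoderm, kidney and gonad (7 genes) to 708 to 842 CPM in KO and 464 to 703 CPM in WT, with NR5A1 at 0 in KO. Their part in the day 2.5 differences was not tested.

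After HAse1.5, 2 of 13 neighbours were called at day 2.5 (both lower), 4 at day 4.5 (1 higher, 3 lower) and 3 at day 7.5 (1 higher, 2 lower). Their median log2 fold changes were −0.97, −0.79 and −0.72, against 0.0, 0.02 and 0.02 for all genes. Of all genes, 1.15%, 3.48% and 3.33% were called on these days. TBX5 was lower at each day, with log2 fold changes of −3.74 ± 0.43, −1.66 ± 0.30 and −1.39 ± 0.30 (edgeR adjusted p = 2.70e-05, 0.00210 and 0.00882). HAND2, a factor of the posterior heart field and proepicardium, rose by 2.03 ± 0.38 at day 4.5 and 1.65 ± 0.38 at day 7.5 (edgeR adjusted p = 0.00334 and 0.0184), and KRT18 had log2 fold changes of −1.75 ± 0.27 and −1.15 ± 0.27 on these days. After HAse2.5, KRT18 fell by 1.84 ± 0.27 at day 4.5 (edgeR adjusted p = 0.00428), the 1 neighbour called, and 0 were called at day 7.5. Of all genes, 0.22% and 0.659% were called after HAse2.5 on these days. MSLN, UPK1B and ALDH1A2, which belong to mature mesothelium or its retinoic acid production, stayed under 6 CPM as group means. The cardiomyocyte marker sums of these enzyme-arm groups are given above, and their part in the neighbour differences was not tested.

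**Figure D4:**
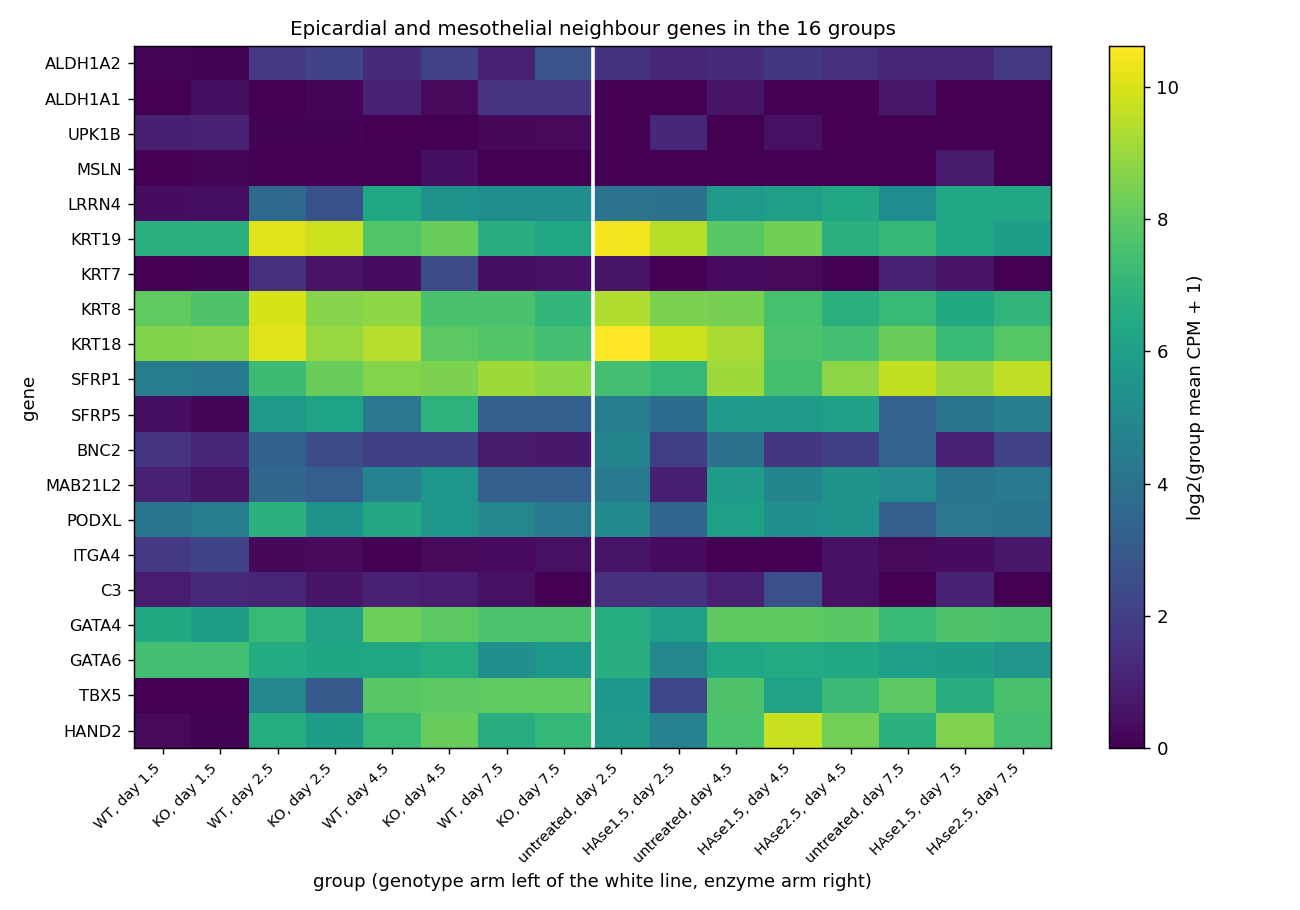
Mean level of 20 epicardial and mesothelial neighbour genes (rows) in the 16 groups (columns), as log2(group mean CPM + 1), with the genotype arm left of the white line. In both arms KRT18 is brightest at day 2.5, HAND2 is brightest in HAse1.5 at day 4.5 (854 CPM), and MSLN stays dark in every group.

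Genes of epicardium-derived fibroblasts and mural cells (20 genes, 19 tested in the genotype arm and 17 in the enzyme arm) had 4 calls between KO and WT at day 4.5 (1 higher, 3 lower; median log2 fold change −0.13 against −0.03 for all genes) and 0 on the other days. After HAse1.5 they had 0 at day 2.5, 4 at day 4.5 (1 higher, 3 lower) and 4 at day 7.5 (2 higher, 2 lower), with medians of −0.26, 0.15 and −0.06. Of all genes, 3.74% were called between KO and WT at day 4.5. After HAse1.5 the shares of all genes were 1.15%, 3.48% and 3.33% at days 2.5, 4.5 and 7.5. The contractile genes TAGLN, ACTA2 and CNN1, which early cardiomyocytes also make, had log2 fold changes in KO of −3.56 ± 0.34, −1.62 ± 0.40 and −1.46 ± 0.31 (edgeR adjusted p = 3.49e-09, 0.0140 and 0.00377), and fibronectin, FN1, rose by 0.81 ± 0.23 (edgeR adjusted p = 0.0405). At day 4.5 after HAse1.5, ACTA2, TAGLN and CNN1 were lower too, with log2 fold changes of −4.41 ± 0.56, −3.51 ± 0.45 and −2.51 ± 0.43 (edgeR adjusted p = 0.000147, 0.0001 and 0.00145), and the pericyte gene RGS5 rose by 1.19 ± 0.25. RGS5 rose at day 7.5 too (1.28 ± 0.25, edgeR adjusted p = 0.00480), as did FN1 (2.23 ± 0.39, edgeR adjusted p = 0.00209). At day 4.5 after HAse2.5 the 1 gene called was TAGLN, which fell by 2.58 ± 0.42 (edgeR adjusted p = 0.00801), and at day 7.5 there was none. The shares of all genes called after HAse2.5 were 0.22% and 0.659%. ACTA2 was the 1 gene of the list called between HAse1.5 and HAse2.5 at day 4.5, with 26.3 ± 19.3 and 361 ± 76.1 CPM (edgeR adjusted p = 0.00552). That comparison called 0.361% of all genes. The cardiomyocyte marker sums of these groups are given above, and their part in the differences of contractile genes was not tested.

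The PDGF ligands had low levels, and 3 of 4 were tested in each arm. In WT from day 2.5 to 4.5, as the receptors fell, PDGFC, PDGFD and PDGFA rose by 2.92 ± 0.64, 2.18 ± 0.65 and 1.16 ± 0.44 on the log2 scale (edgeR adjusted p = 0.000359, 0.00713 and 0.0390), to 7.01 ± 2.14, 6.63 ± 2.72 and 9.44 ± 2.54 CPM (SD, n = 6). The WT means of PDGFC and PDGFD at day 2.5 (0.998 and 1.42 CPM) were under 3 counts per library (1.54 CPM on average), so the sizes of their rises are uncertain. PDGFC and PDGFD rose in untreated cardioids in the same step. No ligand was called between KO and WT or between enzyme and untreated on any day. The receptors of SEMA3D (7 genes, all tested) likewise had no call in those comparisons. The shares of all genes called there are given above. With time in WT, PLXNA4 rose by 2.96 ± 0.63 from day 1.5 to 2.5 and by 3.39 ± 0.45 from day 4.5 to 7.5, to 144 ± 34.2 CPM, and NRP1 rose by 1.71 ± 0.31 from day 2.5 to 4.5. The day 1.5 mean of PLXNA4 (0.879 CPM) was under 3 counts per library (1.28 CPM on average), so the size of its first rise is uncertain.

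Of 11 regulators of epicardial epithelial-to-mesenchymal transition, all were tested in the genotype arm and 9 in the enzyme arm. Between KO and WT, 2 were called at day 2.5 (both lower) and 1 at day 4.5 (higher), with medians of 0.13 and 0.12, and after HAse1.5 there was 1 on each day (lower), with medians of −0.34, 0.02 and −0.28. Of all genes, 0.993% and 3.74% were called between KO and WT on these days, and 1.15%, 3.48% and 3.33% after HAse1.5. TGFB2 fell by 2.58 ± 0.63 in KO at day 2.5 (edgeR adjusted p = 0.0305), from 6.12 ± 4.65 to 0.996 ± 0.948 CPM, and VIM fell by 0.86 ± 0.21 (edgeR adjusted p = 0.0291). The KO mean of TGFB2 was under 3 counts per library (2.065 CPM on average), so the size of its fall is uncertain. At day 4.5 CDH1, the epithelial cadherin, rose by 2.64 ± 0.63 in KO (edgeR adjusted p = 0.0112), from 1.04 ± 1.18 to 8.02 ± 6.71 CPM. The WT mean of CDH1 was also under 3 counts per library (1.59 CPM on average), so the size of its rise is uncertain. After HAse1.5, VIM fell by 1.26 ± 0.23 at day 2.5 (edgeR adjusted p = 0.00381), and CDH2, the cadherin of cardiac muscle and mesenchyme, fell by 1.69 ± 0.24 at day 4.5 and by 0.90 ± 0.24 at day 7.5 (edgeR adjusted p = 0.000193 and 0.0320). SNAI2 and TGFB2 showed the reverse of each other in WT from day 2.5 to 4.5: SNAI2 fell by 3.54 ± 0.48 and TGFB2 rose by 5.02 ± 0.42, to 192 ± 98.4 CPM.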

How the data were processed

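The authors deposited a table of whole-number read counts per Ensembl gene, made with featureCounts (Subread 1.6.2) on hg38/GRCh38, per the submitters' processing notes. The aligner, the annotation release and the strand setting are not given in the sources used here. All 58735 gene IDs occur in GENCODE 29, from which positions were taken, and 58207 matched a symbol. A further 4 columns belong to no listed sample and were not used. Replicate numbers of the enzyme arm are cell lines, so they pair libraries by line: 15 of 21 pairs had residual correlations above 0.1 (lowest −0.102). Among genotype-arm libraries, correlations passed 0.1 in 9 of 13 pairs that share an R number (lowest −0.0742).

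CPM is counts divided by the library total, times 1000000. Tests used edgeR 4.0.16 in R 4.3.3: filterByExpr with a minimum count of 10, TMM factors, a robust quasi-likelihood fit fitted to each arm as a whole with 1 mean for every group, F-tests of each contrast in either direction, and Benjamini-Hochberg adjustment across the genes tested (threshold 0.05). The test over days asked whether the difference at later days departs from that at the first. The fit was tested on simulated data. Alternatives were RLE size factors, no filter, DESeq2 1.42.0, only the compared groups, a replicate block, counts summed per line, run C alone, and leaving out each library. Named genes are all 10 members, up to 4 called genes with the largest change per other list and comparison, and for members reaching 10 CPM the 3 genes most alike. The members and lists were chosen with earlier results of these data known. In 115 pairs of libraries from the same group, chi-square over its degrees of freedom was 2.07 to 71.8, above the 1 that sampling alone gives, so none was treated as a duplicate.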

Additional observations from a re-analysis of the deposited data

Results flagged for a closer look

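The KO difference in PDGFRA changed over the days (edgeR test over days, adjusted p = 0.00764): on day 1.5 the KO mean was 69.8 CPM and the WT mean 71.9. On day 2.5 KO was below WT (280.5 against 418 CPM), on day 4.5 above it (403 against 180 CPM), and on day 7.5 they were 95.4 against 86.8 CPM. Over 3 alternative fits of this test the adjusted p ran from 1.19e-05 to 0.00607.

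The HAse1.5 difference in PDGFRA changed over the days too (edgeR test over days, adjusted p = 0.0135), with means of 90.8 CPM treated against 365 untreated on day 2.5. On day 4.5 they were 322 against 238 CPM, and on day 7.5 they were 93.5 against 72.2 CPM. PDGFRA was lower in 3 of 3 lines at day 2.5 and higher in 3 of 3 lines at day 4.5. Over 3 alternative fits the adjusted p ran from 1.33e-12 to 0.0172. Day and duration of treatment cannot be told apart here.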

How the results depend on the processing

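Over 174 alternative fits of the 12 called member effects, 152 kept the call, 22 lost it and 0 changed direction. Fits in which the gene failed the filter on low counts are not among these. WT1 was tested in 10 of 11 alternatives for HAse1.5 at day 4.5 and for untreated from day 2.5 to 4.5. SEMA3D was tested in 17 of 18 for WT from day 2.5 to 4.5. With TMM scaling 0 of 160 group means moved by over 1 SD. The number of members called moved as follows. Without the filter on low counts it became 6 in WT from day 1.5 to 2.5, 0 in WT from day 4.5 to 7.5, 2 for HAse1.5 at day 4.5, 1 at day 7.5, 1 for HAse2.5 at day 4.5, 2 at day 7.5, and 4 in untreated from day 2.5 to 4.5. With only the compared groups it became 1 for KO at day 2.5, and 0 in WT from day 4.5 to 7.5, for HAse1.5 at day 2.5 and for HAse1.5 at day 4.5. With counts summed per line it was 0 in WT from day 4.5 to 7.5, and with DESeq2 0 for HAse1.5 at day 4.5. With the replicate block (line) it became 4 in untreated from day 2.5 to 4.5, and the block changed no other number of members called. In WT from day 2.5 to 4.5 it was 3, and 2 to 4 over the alternatives. Leaving out 1 library at a time gave 2 to 3 in WT from day 1.5 to 2.5, 2 to 3 from day 2.5 to 4.5 and 0 to 1 from day 4.5 to 7.5, 0 to 2 for HAse1.5 at day 4.5, 0 to 1 at day 7.5, 0 to 1 for HAse2.5 at day 7.5, 1 to 3 in untreated from day 2.5 to 4.5 and 0 to 1 from day 4.5 to 7.5. The cause of these moves was not tested. The number of all genes called moved more, over every alternative run. For KO it went from 137 to between 66 and 292 at day 2.5, from 516 to between 142 and 899 at day 4.5 and from 48 to between 27 and 193 at day 7.5. For HAse1.5 it went from 146 to between 61 and 290 at day 2.5, from 443 to between 199 and 662 at day 4.5 and from 425 to between 145 and 713 at day 7.5. For HAse2.5 it went from 28 to between 0 and 201 at day 4.5 and from 84 to between 3 and 377 at day 7.5. Between HAse1.5 and HAse2.5 it went from 46 to between 2 and 296 at day 4.5 and from 1 to between 1 and 80 at day 7.5. From day 4.5 to 7.5 it went from 372 to between 138 and 752 in WT and from 814 to between 276 and 1957 in untreated, and from day 1.5 to 2.5 in WT from 4153 to between 2736 and 5319. In the tests over days it went from 93 to between 87 and 416 for KO and from 129 to between 128 and 549 for HAse1.5. The shares of all genes called in the text move with these numbers. Depth limits the low members most: 3 counts are up to 3.61 CPM, and WT1, TBX18, TCF21, BNC1, UPK3B, DCN and LUM had group means near or under that in most groups.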
